A study of Homo sapiens with 2 samples.

Results

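The matrix metalloproteinase (MMP), ADAM, ADAMTS and TIMP genes of A549 cells were compared between cells overexpressing MYOCD (MYOCD) and wild-type cells (WT). They were taken as all genes of the deposited table whose symbol is MMP, ADAM, ADAMTS, ADAMTSL or TIMP followed only by a number. The rule gave 72 genes of 56255, of which 22 were MMP, 22 ADAM, 24 ADAMTS or ADAMTSL and 4 TIMP genes. A549 is an established line of human lung adenocarcinoma, and MYOCD encodes myocardin, a coactivator that drives smooth and cardiac muscle genes through the transcription factor SRF. The MYOCD cells carried forced expression of that gene, and the WT cells are labelled as wild type. The column header of the WT library also holds the letters rtt, whose meaning is not given. All cells were grown in DMEM with fetal bovine serum. The labels name neither the means of delivery nor a vector control, so the effect of the gene and that of its delivery cannot be told apart. Each of the 2 groups was 1 library, so no value below has a replicate error and no p-value was computed. A difference was read by its size alone.

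These families remodel the surroundings of cells. MMPs are zinc proteases that cut collagens, laminins and other matrix proteins, and are either secreted or held at the cell surface. ADAMs are membrane proteins, many of which shed the outer part of growth factors, receptors and adhesion molecules. ADAMTS proteins are secreted relatives that trim proteoglycans, procollagens and microfibril proteins, ADAMTSL proteins resemble them but lack the protease domain, and TIMPs block MMPs and some ADAM and ADAMTS proteases. In tumours of epithelial origin they are known for roles in invasion and in growth factor release.

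Values are RPKM (reads scaled to the length of the gene model and to the depth of the library), which allows levels of different genes to be set side by side. MYOCD itself stood at 48.6 RPKM in the MYOCD library, against 0.304 RPKM in the WT library, in the direction of the labels. Among low values, the ratio of WT to MYOCD values was most often 0.875, which is the ratio of MYOCD to WT depth if both rest on equal numbers of reads. Of 3055 low genes 30.1% lay within 3% of that ratio, and 0.556% within 3% of a ratio of 1. The step made by 1 read put the depth at roughly 14300000 reads in MYOCD and 16400000 in WT. All 6 epithelial markers reached 1 RPKM in either library, and 4 of them stood above their WT value. The keratin gene KRT18 stood at 1134 RPKM in MYOCD and 1647 RPKM in WT, KRT7 at 1386 RPKM in MYOCD and 996 RPKM in WT, and the adhesion gene EPCAM, higher by over 2-fold, at 2.57 RPKM in MYOCD and 0.889 RPKM in WT. Of 9 alveolar type II markers 2 reached that level, ABCA3 at 6.72 RPKM in MYOCD and 5.55 RPKM in WT and NAPSA at 1.04 RPKM in MYOCD and 0.394 RPKM in WT, and the surfactant genes SFTPC and SFTPA2 were listed at 0 in both.

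Of the 72 genes, 30 reached 1 RPKM in either library, and 6 of these were higher in MYOCD by 2-fold or more. They were ADAM19, ADAM12, ADAMTS16, ADAMTS9, ADAMTSL5 and MMP14. On the log2 scale with its pseudocount 0 of the 30 were lower by 2-fold, although the plain ratio of MYOCD to WT was under 0.5 for MMP7 (0.493), ADAM11 (0.489) and ADAMTSL4 (0.489). Among all 17350 genes past the same filter 5.42% were higher and 6.35% were lower, 11.8% in either direction. Among the 12337 protein-coding ones 3.02% were higher and 3.1% were lower, 6.11% in either direction. Fold changes were computed as log2((MYOCD + 0.5)/(WT + 0.5)), and 2-fold is a log2 change of 1 in either direction. In bulk RNA, a change in the number of cells that express a gene and a change in RNA per cell cannot be told apart.

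The 6 higher genes stood between 3.02 and 9.64 RPKM in MYOCD, against 0.761 to 4.08 RPKM in WT, and lay on 5 chromosomes. That level in MYOCD was not theirs alone. ADAM23 (9.19 RPKM), MMP15 (6.24 RPKM) and TIMP4 (4.04 RPKM) lay in the same range in MYOCD and were under 2-fold. Of the 19 members past the filter with a mean under 10 RPKM, 6 were higher and 0 lower, where 5.68% of protein-coding genes in that range were higher and 5.82% were lower, 11.5% in either direction. Abundant members mostly lay on the other side, with MMP7 the farthest from its WT value. Of the 11 with a mean of at least 10 RPKM, 9 were below their WT value and 0 were at or beyond 2-fold, with a median log2 change of -0.32. Of the 9, ADAM17, MMP24 and TIMP2 share 5% or more of their exon length with other genes. Over the 8404 genes of the whole table at that level 4146 were below their WT value and the median was 0.00. Of the protein-coding ones 1.27% were higher and 1.31% lower, 2.59% in either direction. The division at 10 RPKM was chosen after the values had been seen and puts all 6 on the same side. These counts are therefore a description only. ADAM12 and ADAMTS16 passed the filter only through MYOCD, where they stood higher. In all, 4 members passed it only through MYOCD and 2 only through WT.

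**Figure D1:**
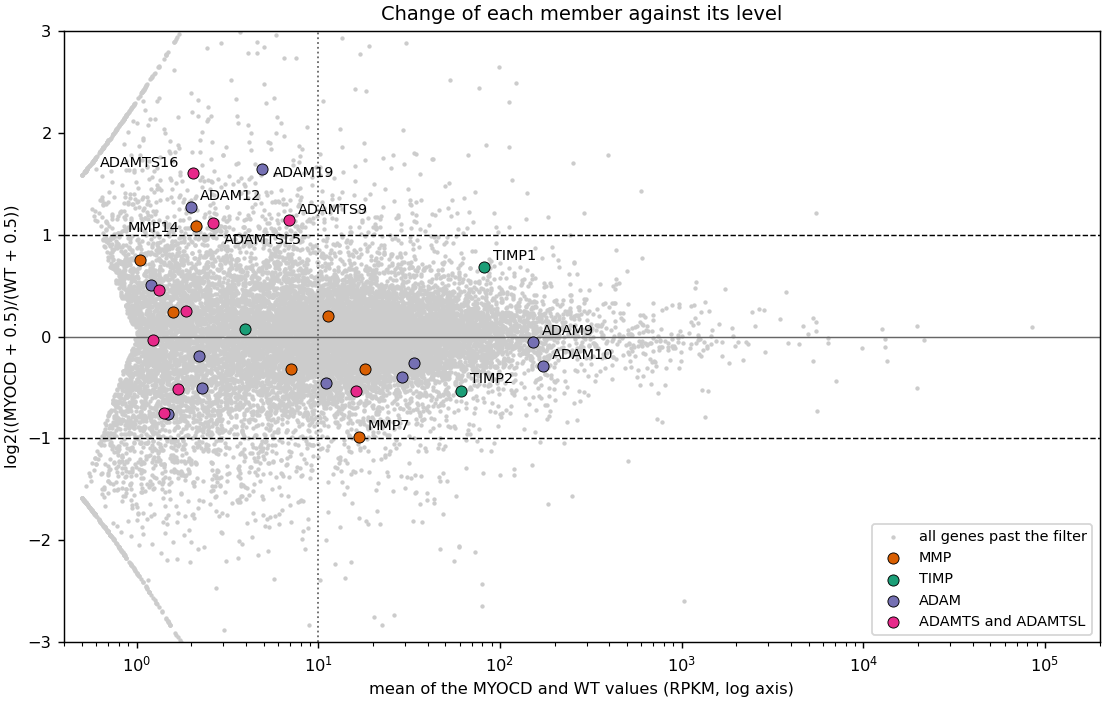
Each coloured point is a member past the filter, plotted by the mean of its MYOCD and WT values (RPKM, log axis) and its log2 change, with grey points for all genes past the filter. The 6 members above the upper dashed line (2-fold) all lie left of the dotted line (10 RPKM), and 444 other genes and 0 members lie outside the plotted log2 limit of 3 in either direction.

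Promoter sequence was held in RefSeq windows (GRCh38.p14) for 43 of the 72 genes, and 4 of the 6 higher genes were among them. Shown are the 250 bases before the RefSeq start of ADAM19, ADAM12 and MMP14, which stood higher in MYOCD, and of MMP7, which stood lower. ADAMTSL5 also had a window, but all 250 of its bases lay in GENCODE exons of that gene, so it is not shown. Capitals mark GC boxes (GGGCGG), the AP-1 site (TGANTCA) and the TATA box (TATAAA), each searched on both strands, 5′ to 3′ on the strand of the gene. The windows are chr5:157575776-157576025 on the minus strand for ADAM19, chr10:126388478-126388727 on the minus strand for ADAM12, chr14:22836335-22836584 on the plus strand for MMP14 and chr11:102530748-102530997 on the minus strand for MMP7.
ADAM19: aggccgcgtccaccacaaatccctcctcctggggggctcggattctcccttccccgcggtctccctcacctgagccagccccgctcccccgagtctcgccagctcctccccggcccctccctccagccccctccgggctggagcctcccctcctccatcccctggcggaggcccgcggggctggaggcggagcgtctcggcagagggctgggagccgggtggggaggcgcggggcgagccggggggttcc
ADAM12: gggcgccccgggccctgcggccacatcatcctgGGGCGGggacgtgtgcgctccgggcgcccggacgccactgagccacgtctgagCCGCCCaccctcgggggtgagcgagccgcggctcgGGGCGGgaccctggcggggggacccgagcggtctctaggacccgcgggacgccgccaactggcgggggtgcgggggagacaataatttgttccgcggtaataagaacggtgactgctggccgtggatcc
MMP14: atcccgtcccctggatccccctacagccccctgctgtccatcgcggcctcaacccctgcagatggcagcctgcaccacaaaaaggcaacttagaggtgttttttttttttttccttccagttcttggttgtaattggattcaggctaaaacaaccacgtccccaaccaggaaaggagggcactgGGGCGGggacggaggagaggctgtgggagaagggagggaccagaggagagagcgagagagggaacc
MMP7: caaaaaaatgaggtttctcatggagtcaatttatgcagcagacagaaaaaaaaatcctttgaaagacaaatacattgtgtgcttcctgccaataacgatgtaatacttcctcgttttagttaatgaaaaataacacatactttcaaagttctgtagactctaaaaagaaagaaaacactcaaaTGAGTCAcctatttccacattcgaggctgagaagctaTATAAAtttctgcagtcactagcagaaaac

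The MMP7 window differed from the other 3 in base composition and in motifs. It held an AP-1 site ending 61 bases before the start and a TATA box ending 25 bases before it, and 33.6% of its bases were G or C. The ADAM19, ADAM12 and MMP14 windows had 76.4%, 73.6% and 56.8% G or C, against a median of 58% over all 35116 promoter windows. The CArG box, the motif that SRF binds, was found in 0 of the 43 members' windows and in 1.16% of all windows. An AP-1 site was in 4 of the 43 members and in 6.57% of all windows, a TATA box in 8 and in 10.7%, and a GC box in 29 and in 42.6%. The TEAD motif GGAATG was in 4 members and in 11.9% of all windows. Members are counted as genes with the motif in any of their windows, whereas the shares count windows. Motifs of different kinds did not overlap in the 4 printed windows, and a match is a description of letters only.

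Membrane-type MMPs, which work at the cell surface, had 4 of 6 genes past the filter, 1 of them higher by 2-fold or more. MMP14 (chromosome 14 from 22836557 to 22849027, plus strand, GENCODE 29 on GRCh38), a surface collagenase that also activates MMP2, stood at 3.06 RPKM in MYOCD against 1.18 RPKM in WT. Its log2 change was 1.08, or 0.90 with a pseudocount of 1 RPKM, which is under 2-fold. It was the lowest of these 4 genes in both libraries. MMP24 was the most abundant, at 16.0 RPKM in MYOCD and 20.03 RPKM in WT, but it shared 18.1% of its exon length with a gene on the opposite strand, MMP24-AS1 (MMP24OS in GENCODE), which stood at 28.8 RPKM in MYOCD and 32.7 RPKM in WT. The library kit does not keep the strand of the RNA, so reads of such a pair cannot be told apart where they overlap. MMP17, which is held in the membrane by a lipid anchor, stood at 12.1 RPKM in MYOCD and 10.4 RPKM in WT, and MMP15 at 6.24 RPKM in MYOCD and 7.88 RPKM in WT. MMP16 did not pass the filter, at 0.159 RPKM in MYOCD and 0.0745 RPKM in WT. The summed RPKM of the 6 genes was nearly equal, 38.3 in MYOCD and 39.7 in WT.

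Secreted MMPs were mostly under 1 RPKM, with 3 of 16 past the filter and 6 listed at 0 in both libraries. MMP7 (chromosome 11 from 102520508 to 102530753, minus strand), the matrilysin of epithelial cells, stood at 11.1 RPKM in MYOCD against 22.5 RPKM in WT. The ratio of WT to MYOCD was 2.03, and the log2 change of -0.99 lay just inside 2-fold because of the pseudocount. With a pseudocount of 0.1 RPKM it was -1.01. MMP7 was the most abundant MMP in WT, with 34.4% of the summed MMP RPKM, and the third in MYOCD, with 20.7%. MMP28, or epilysin, stood at 1.44 RPKM in MYOCD and 0.650 RPKM in WT (log2 change 0.75, or 1.04 with a pseudocount of 0.1). The gelatinase gene MMP2 stood at 1.76 RPKM in MYOCD and 1.41 RPKM in WT, while the other gelatinase gene, MMP9, stood at 0.0846 RPKM in MYOCD and 0.0231 RPKM in WT. MMP9 shared 18.4% of its exon length with SLC12A5-AS1 on the opposite strand (0.0370 RPKM in MYOCD and 0.287 RPKM in WT). Outside the chromosome 11 run described next, MMP19 stood at 0.403 RPKM in MYOCD and 0.607 RPKM in WT. It shared 17.4% of its exon length with TMEM198B on the opposite strand (8.74 RPKM in MYOCD and 13.2 RPKM in WT). MMP11 and MMP21 were lower still in both, and MMP26 was listed at 0.

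MMP7 lies at one end of a run of 9 MMP genes on chromosome 11 between 102520508 and 102955734. It was the only one of the 9 past the filter. In that run MMP20, MMP8, MMP3, MMP12 and MMP13 were listed at 0 in both libraries. MMP10 stood at 0.0356 RPKM in MYOCD and 0.0631 RPKM in WT, MMP1 at 0.0305 RPKM in MYOCD and 0.0539 RPKM in WT, and MMP27 was listed at 0 in MYOCD and at 0.0304 RPKM in WT. By the step of 1 read, MMP1 held about 1 read in MYOCD and 2 in WT, so no difference can be read between them. The run holds the interstitial collagenase genes MMP1, MMP8 and MMP13 and the stromelysin genes MMP3 and MMP10, all below 0.1 RPKM in both libraries.

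**Figure D2:**
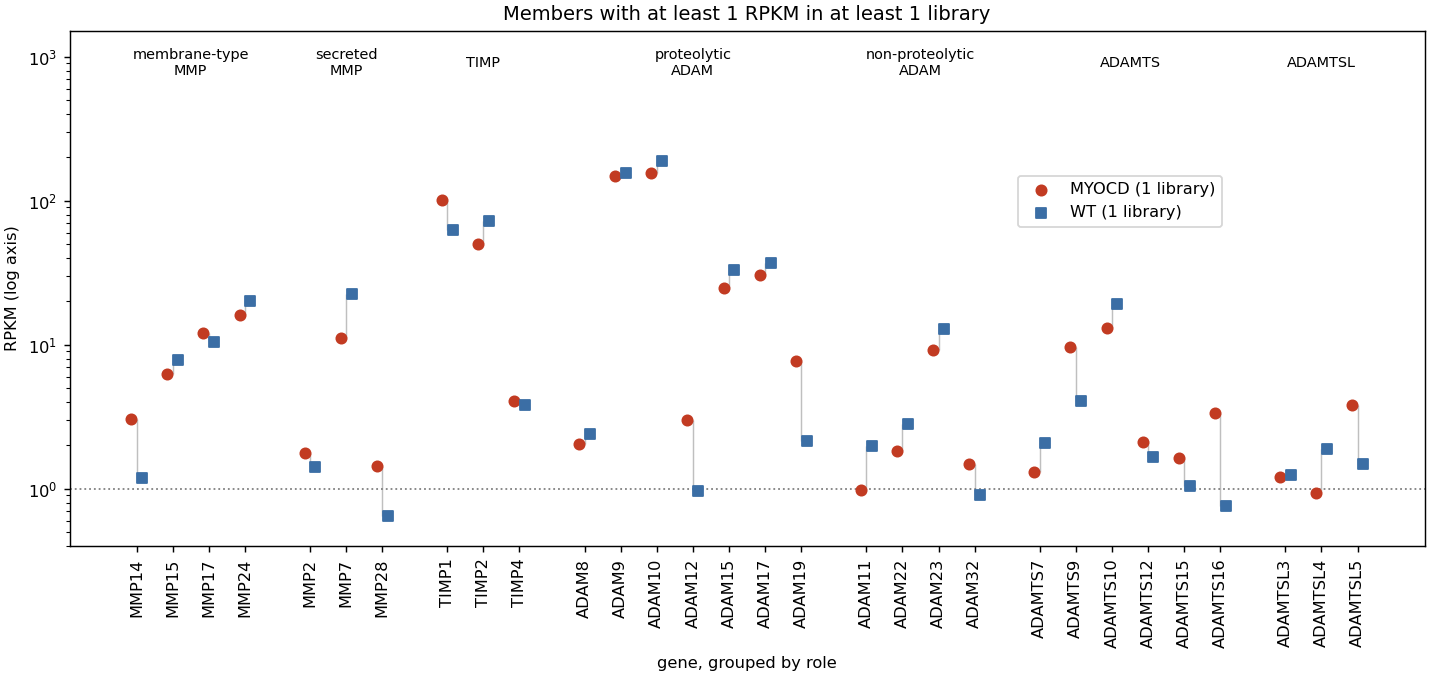
RPKM on a log axis of the 30 members past the filter, grouped by role, with the MYOCD library as circles, the WT library as squares and a dotted line at 1 RPKM. MMP14, ADAM12, ADAM19, ADAMTS9, ADAMTS16 and ADAMTSL5 show the widest gaps with MYOCD on top, and MMP7, ADAM11 and ADAMTSL4 the widest with WT on top.

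TIMP1 and TIMP2 each stood above every MMP gene, and their order differed between the libraries. TIMP1 (chromosome X from 47582313 to 47586789, plus strand), a secreted inhibitor of many MMPs, stood at 101 RPKM in MYOCD against 62.7 RPKM in WT, a log2 change of 0.68. TIMP2 (chromosome 17 from 78852977 to 78925387, minus strand), which inhibits MMPs and also links MMP14 to the MMP2 proenzyme, stood at 49.6 RPKM in MYOCD against 71.9 RPKM in WT, a log2 change of -0.53. TIMP1 was the more abundant in MYOCD and TIMP2 in WT, with a TIMP1 to TIMP2 ratio of 2.03 in MYOCD and 0.872 in WT, although each gene lay under 2-fold. TIMP2 shared 6.52% of its exon length with AC022966.1 on the opposite strand, which stood at 95.98 RPKM in MYOCD and 144 RPKM in WT.

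TIMP4 stood at 4.04 RPKM in MYOCD and 3.82 RPKM in WT. It shared 10.3% of its exon length with SYN2 on the opposite strand (0.218 RPKM in MYOCD and 0.398 RPKM in WT). TIMP3, a matrix-bound inhibitor that also blocks ADAM17, did not pass the filter, at 0.207 RPKM in MYOCD and 0.0900 RPKM in WT, which the step of 1 read puts at about 14 reads in MYOCD and 7 in WT. TIMP1 and TIMP2 together made up 97.3% of the summed TIMP RPKM in MYOCD and 97.2% in WT. The summed TIMP level was 155 RPKM in MYOCD against 139 RPKM in WT, and the summed MMP level was 53.4 RPKM in MYOCD against 65.3 RPKM in WT. The ratio of these sums was 2.89 in MYOCD and 2.12 in WT. They are RNA levels of all members and say nothing of protein or of activity.

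**Figure D3:**
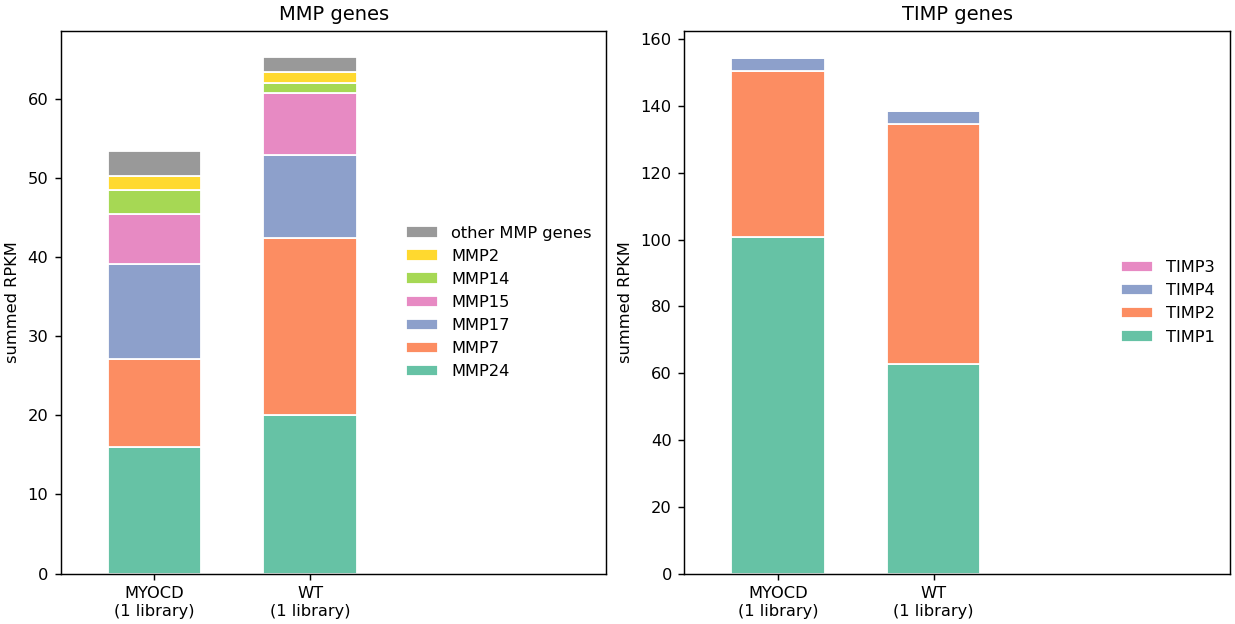
Summed RPKM of MMP genes (left) and TIMP genes (right), with MYOCD left of WT in each panel and each coloured block the value of a gene. The MMP7 block is smaller in MYOCD (11.1 RPKM) than in WT (22.5 RPKM), the TIMP1 block is larger (101 RPKM in MYOCD, 62.7 RPKM in WT), and the TIMP3 block is too thin to see.

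Among ADAM genes with an active protease, the 2 higher by 2-fold or more were ADAM19 and ADAM12. ADAM19 (chromosome 5 from 157395534 to 157575775, minus strand), meltrin beta, which sheds neuregulins and is needed for heart development in the mouse, stood at 7.73 RPKM in MYOCD against 2.14 RPKM in WT. Its log2 change was 1.64, and 1.81 with a pseudocount of 0.1 RPKM. ADAM12 (chromosome 10 from 126012381 to 126388455, minus strand), meltrin alpha, first known from fusing muscle cells of the mouse, stood at 3.02 RPKM in MYOCD against 0.956 RPKM in WT, a log2 change of 1.27. ADAM12 reached 1 RPKM only in MYOCD, as did ADAMTS16 among the 6. The other 4 of the 6 reached it in both libraries.

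The abundant sheddases differed little. ADAM10, which releases the outer part of Notch receptors and cadherins, stood at 155 RPKM in MYOCD and 189.7 RPKM in WT and was first of the 72 genes in both. ADAM9 was second in both, at 149 RPKM in MYOCD and 156 RPKM in WT. Its log2 change was -0.06, or 0.03 with the median of 11 housekeeping genes, GPI and VCP among them, set to no change. The log2 changes of these 11 ran from -0.62 (CHMP2A) to 0.20 (REEP5). ADAM10 and ADAM9 together held 48.0% of the summed RPKM of the 72 genes in MYOCD and 50.9% in WT. ADAM17, the protease that frees TNF and ligands of the EGF receptor, stood at 30.6 RPKM in MYOCD and 36.7 RPKM in WT, and shared 12.3% of its exon length with IAH1 on the opposite strand (57.5 RPKM in MYOCD and 65.2 RPKM in WT). ADAM15 stood at 24.8 RPKM in MYOCD and 33.0 RPKM in WT, and ADAM8 at 2.03 RPKM in MYOCD and 2.39 RPKM in WT. All 5 were below their WT value and under 2-fold, and only the sign of ADAM9 depended on the scaling. The other 5 genes of this class, ADAM20, ADAM21, ADAM28, ADAM30 and ADAM33, did not exceed 0.122 RPKM in MYOCD or 0.0846 RPKM in WT.

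ADAM genes without an active protease had 4 of 8 members past the filter and 0 at or beyond 2-fold. ADAM11, ADAM22 and ADAM23, adhesion proteins best known from the nervous system, each stood lower in MYOCD. ADAM23 was at 9.19 RPKM in MYOCD and 12.8 RPKM in WT, ADAM22 at 1.81 RPKM in MYOCD and 2.79 RPKM in WT, and ADAM11 at 0.973 RPKM in MYOCD and 1.99 RPKM in WT. Their log2 changes were -0.46, -0.51 and -0.76. ADAM32 stood at 1.49 RPKM in MYOCD and 0.900 RPKM in WT. It lies beside ADAM9 in a run of 5 ADAM genes on chromosome 8, from 38996869 to 39838289, in which ADAM18 and ADAM2 were listed at 0 in both. The pseudogene ADAM5 of that run was listed at 0.912 RPKM in MYOCD and at 0 in WT. ADAM7, ADAM29 and the pseudogene ADAM6 were listed at 0 in both libraries.

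ADAMTS genes had 6 of 19 members past the filter, 2 of them higher by 2-fold or more. ADAMTS16 (chromosome 5 from 5140330 to 5320304, plus strand) stood at 3.35 RPKM in MYOCD against 0.761 RPKM in WT, a log2 change of 1.61 and a ratio of 4.40. ADAM19 had the larger log2 change at the pseudocount used, but ADAMTS16 had the larger ratio and, with a pseudocount of 0.1 RPKM, the larger log2 change. ADAMTS9 (chromosome 3 from 64515654 to 64688000, minus strand), which cuts the proteoglycans versican and aggrecan, stood at 9.64 RPKM in MYOCD against 4.08 RPKM in WT, a log2 change of 1.15. The related versican protease gene ADAMTS15 stood at 1.62 RPKM in MYOCD and 1.04 RPKM in WT. The other proteoglycan proteases, ADAMTS1, ADAMTS4, ADAMTS5, ADAMTS8 and ADAMTS20, did not exceed 0.215 RPKM in MYOCD or 0.230 RPKM in WT. Of these 7 genes ADAMTS9 was the most abundant in both libraries.

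ADAMTS10, a partner of fibrillin microfibrils, was the most abundant ADAMTS gene and stood lower in MYOCD, at 13.1 RPKM against 19.1 RPKM in WT (log2 change -0.53). ADAMTS7 and ADAMTS12, which cut cartilage oligomeric matrix protein, lay on opposite sides of their WT values, with ADAMTS7 at 1.31 RPKM in MYOCD and 2.09 RPKM in WT, and ADAMTS12 at 2.09 RPKM in MYOCD and 1.67 RPKM in WT. ADAMTS7 has near copies among pseudogenes, of which the table lists ADAMTS7P1, ADAMTS7P3 and ADAMTS7P4, at 0 in MYOCD and at most 0.334 RPKM in WT, so its value is uncertain where reads were shared. The procollagen amino-propeptidase genes ADAMTS2, ADAMTS3 and ADAMTS14 did not pass the filter, with ADAMTS2 the highest of them at 0.224 RPKM in MYOCD and 0.111 RPKM in WT. ADAMTS13, which cuts von Willebrand factor, stood at 0.363 RPKM in MYOCD and 0.768 RPKM in WT, and ADAMTS6 at 0.308 RPKM in MYOCD and 0.0500 RPKM in WT.

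ADAMTSL genes encode matrix proteins with no protease domain, and 3 of 5 passed the filter. ADAMTSL5 (chromosome 19 from 1505018 to 1513604, minus strand), a fibrillin-binding protein, stood at 3.79 RPKM in MYOCD against 1.48 RPKM in WT, a log2 change of 1.12, or 0.95 with a pseudocount of 1 RPKM. ADAMTSL4, another protein of microfibrils, went the other way, at 0.926 RPKM in MYOCD and 1.90 RPKM in WT (log2 change -0.75), and shared 11.4% of its exon length with ADAMTSL4-AS1 on the opposite strand (1.42 RPKM in MYOCD and 1.43 RPKM in WT). ADAMTSL3 stood at 1.21 RPKM in MYOCD and 1.25 RPKM in WT. Its log2 change of -0.03 was 0.05 with the median of those housekeeping genes set to no change.

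The 42 members under 1 RPKM in both libraries included 16 listed at 0 in both and 22 above 0 in both. Of the remaining 4, ADAM5 and ADAMTS17 were above 0 only in MYOCD, and ADAMTS19 and MMP27 only in WT. Of the 42, 16 had the higher value in MYOCD and 10 in WT. A difference of 0.5 RPKM or more occurred in 2, ADAM5 and MMP25. MMP25, a lipid-anchored MMP known from white blood cells, stood at 0.761 RPKM in MYOCD and 0.137 RPKM in WT. It shared 35.2% of its exon length with MMP25-AS1 on the opposite strand, at 6.72 RPKM in MYOCD and 5.07 RPKM in WT. Several low values rest on a handful of reads: by the step of 1 read MMP9 held about 3 in MYOCD and 1 in WT, and ADAM20 about 3 in MYOCD and 2 in WT.

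By family, the medians of members past the filter stood on both sides of 0. The median log2 change was 0.20 over 7 MMP genes, 0.07 over 3 TIMP genes, -0.26 over 11 ADAM genes and 0.26 over 9 ADAMTS and ADAMTSL genes. Over all 30 it was -0.05, beside -0.00 over all genes past the filter. Of the 30, 14 were above their WT value and 16 below.

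Genes that control or assist these proteases were read from a list of 42, all of them in the table. Of these 31 passed the filter, 2 were higher by 2-fold or more and 1 was lower, beside the 5.42% and 6.35% of all genes. SPOCK1, which encodes the proteoglycan testican with a part in MMP control, stood at 9.18 RPKM in MYOCD against 0.848 RPKM in WT, a log2 change of 2.84. PCSK5, a proprotein convertase of the class that cuts the prodomains of MMP and ADAM proteins, stood at 10.01 RPKM in MYOCD against 1.86 RPKM in WT, a log2 change of 2.15. The other convertases lay under 2-fold, with FURIN at 14.1 RPKM in MYOCD and 11.6 RPKM in WT and PCSK7 at 8.99 RPKM in MYOCD and 6.96 RPKM in WT, and all 4 of the list were above their WT value. THSD4, a relative of the ADAMTSL genes that acts in microfibrils, stood at 17.1 RPKM in MYOCD against 50.7 RPKM in WT, a log2 change of -1.54.

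Inhibitors and cofactors other than SPOCK1 lay under 2-fold. Basigin (BSG), which induces MMPs in neighbouring cells, stood at 318 RPKM in MYOCD and 300.03 RPKM in WT, and the protease inhibitor gene TFPI2 at 229 RPKM in MYOCD and 288 RPKM in WT. The partners of ADAM10 and ADAM17, which guide those sheddases through the cell, had 9 of 9 past the filter and 0 called. Their most abundant were the tetraspanin genes TSPAN14, at 85.8 RPKM in MYOCD and 61.7 RPKM in WT, and TSPAN15, at 41.4 RPKM in MYOCD and 61.8 RPKM in WT. In the plasminogen system, which activates several proMMPs, 5 of 6 passed and 0 were called. The activator gene PLAU stood at 61.3 RPKM in MYOCD and 59.1 RPKM in WT. Among related metalloproteinases, the procollagen C-proteinase gene BMP1 stood at 25.4 RPKM in MYOCD and 19.0 RPKM in WT and PAPPA, a protease of IGF-binding proteins, at 16.5 RPKM in MYOCD and 19.6 RPKM in WT.

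**Figure D4:**
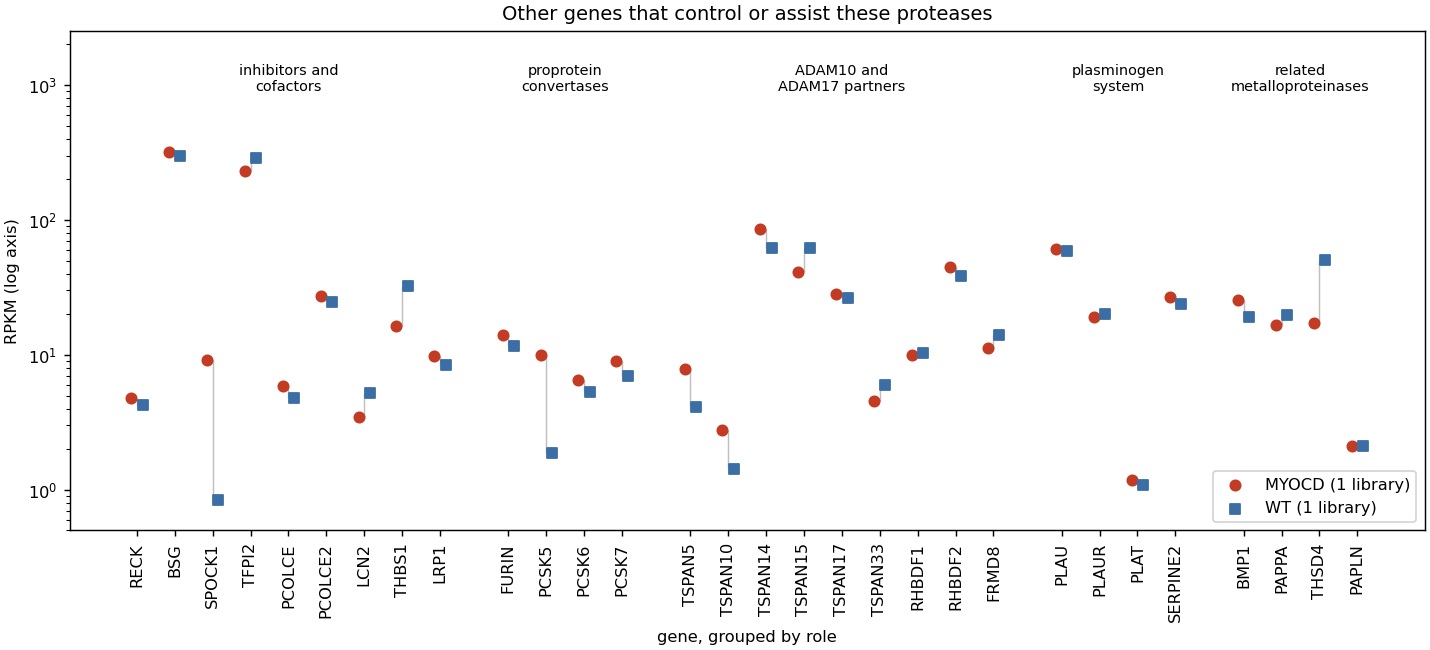
RPKM on a log axis of 30 of the 31 controlling or assisting genes past the filter, grouped by role, with the MYOCD library as circles and the WT library as squares. SPOCK1 and PCSK5 show the widest gaps with MYOCD on top and THSD4 the widest with WT on top.

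Several of the 6 higher genes are also expressed by stromal cells, so markers of other cell types were read beside them. Of 7 fibroblast markers 1 passed the filter, and their summed level was 1.94 RPKM in MYOCD against 2.69 RPKM in WT, with DCN at 0 in both. THY1 stood at 0.959 RPKM in MYOCD and 1.91 RPKM in WT and PDGFRB at 0.0097 RPKM in MYOCD and 0.432 RPKM in WT. COL1A2, COL3A1, LUM and PDGFRA had the higher value in MYOCD, with PDGFRA at 0.422 RPKM in MYOCD and 0.0474 RPKM in WT and COL1A2 at 0.174 RPKM in MYOCD and 0 in WT. The 4 endothelial markers summed to 0.139 RPKM in MYOCD and 0.00689 RPKM in WT, with VWF, CDH5 and KDR at 0 in both. Of 5 blood cell markers 2 passed, CD14 and ITGAM, the sum was 2.22 RPKM in MYOCD and 3.80 RPKM in WT, and PTPRC and CD3E were at 0 in both. The part of such cells in the results was not tested.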

How the data were processed

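Total RNA of A549 cells was sequenced as 1 library of MYOCD-overexpressing and 1 of wild-type cells, prepared with the Illumina TruSeq RNA kit per the labels' protocols. The authors deposited RPKM values per gene, per the file headers, and a key in the table assigns its columns to the groups. Bowtie 0.12.2 and the genome builds GRCh38.p12 and mm8 (a mouse assembly) are named in the submitters' processing notes with no role. Neither an annotation nor a counter is named in the sources used here. The members and lists were chosen with earlier results of these data known.

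From the 57979 rows, 248 symbols stood on several rows (0 of them members), and each was represented by its row of highest mean value. Log2 changes used a pseudocount of 0.5 RPKM, which understates changes of low genes. Genes with 1 RPKM in either library were counted, and 2-fold was a rule of size, not a test. Every member past that filter was named, as were controlling or assisting genes at 2-fold and the 2 most abundant of each of their groups, apart from 1 gene that is not reported here. Markers were given by counts and sums, and those named were chosen after their values were seen. Gene models and exon overlaps came from GENCODE 29, which held 57375 of the identifiers, and promoters from RefSeq. Whole counts were not recovered, because the model lengths used are unknown, so the reads per gene are approximate and no counting interval was computed. Alternatives were 2 other pseudocounts, 3 other filters, 3 scalings and summed rows. A last one, leaving out members with 5% or more of their exons shared, was chosen after seeing the data. Python 3.11.15, pandas 2.3.3 and numpy 2.4.6 were used.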

Additional observations from a re-analysis of the deposited data

How the results depend on the processing

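No paired analysis was possible because each group holds 1 library, and for the same reason no library could be left out. The count of members higher by 2-fold was 6, and 2 with a filter of 5 RPKM in a library, where ADAM19 and ADAMTS9 remained of 14 members. Among all genes 940 of 17350 were higher at the main setting and 450 of 11440 with that filter. The count of members was 4 with a pseudocount of 1 RPKM, where 741 of all 17350 genes were higher. It was 7 with a pseudocount of 0.1 RPKM (1208 of 17350 over all genes) and 7 without a filter (1222 of 56255). Under every other setting it was 6. All genes then gave 730 of 16269 with a mean of at least 1 RPKM and 938 to 1074 of 17350 otherwise. The same 6 genes were among the 6 or 7. The count lower was 0, and 1 (MMP7) with a pseudocount of 0.1 RPKM. Among all 17350 genes 1102 were lower at the main setting and 1432 with that pseudocount. The median log2 change of members was -0.05, and -0.30 with the 5 RPKM filter. It was 0.041 with the median of the housekeeping genes set to no change and 0.20 without members that share exons. The ADAM median of -0.26 was 0 without a filter. The ADAMTS and ADAMTSL median of 0.26 was 0.0073 without a filter and 0.36 without shared exons. The MMP median of 0.20 was -0.31 with the 5 RPKM filter and 0 without a filter, and the TIMP median of 0.07 was 0.68 without shared exons, where TIMP1 alone was left. With the median of the housekeeping genes set to no change ADAM9 was at 0.028 and ADAMTSL3 at 0.053. The cause of these differences was not tested. The log2 shifts that the scalings removed were -0.01 (same total RPKM), -0.00 (trimmed mean) and -0.09 (housekeeping genes). Of the controlling genes 2 were higher, or 3 with the same total RPKM or the housekeeping median set to no change. Under every setting 1 was lower. Among all 17350 genes those 2 scalings gave 948 and 1074 higher, beside 940 at the main setting. The count of all genes lower ran from 510 of 11440 with the 5 RPKM filter to 1443 of 56255 without a filter. With 1 library a group, none of these values shows how far separate cultures would differ.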
